A study of Mus musculus with 18 samples.

Results

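The 47 genes described here lie on distal mouse chromosome 13, between 100.1 and 119.8 Mb of GRCm38, and are a neighbourhood of unrelated genes rather than a pathway. They were chosen by name from a list of 48 symbols on an interval that had been picked because its expression was shifted, with HM high, against the mean of all 18 samples. All 3 lines entered that choice, so differences between lines in these genes are given as description and support nothing. One listed gene, Setd9, was not analysed here. The 47 genes are part of 55450 in the table, and 46 of them are protein-coding (Zswim6 is annotated as a processed transcript). All 47 passed a mean of 1 TPM in each comparison used here. By position 19 lie on the plus strand and 28 on the minus strand.

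All cells were P19, a mouse embryonic carcinoma line from a teratocarcinoma that grows as undifferentiated cells and can be differentiated in culture. WT cells are Dicer (+/+). HetKO cells are Dicer (+/-), a clonal line with a truncating frameshift in one allele made with guide RNAs. HM cells are Dicer (HM/-), made from HetKO by editing the remaining allele to carry E1797G, a hotspot mutation in the RNase IIIb domain that cuts the 5p arm of microRNA precursors. Each line had 6 samples of poly(A) RNA. HetKO and HM therefore share the truncated allele, and each genotype is 1 line, so a difference between genotypes cannot be told apart from a difference between clones.

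Neighbouring genes on a chromosome share the number of copies of the segment they lie on and, in part, its chromatin, so the RNA of unrelated genes can move together by position. Several genes here are also part of close head-to-head pairs that start from a common promoter region. The products do many jobs: cyclin B1 (Ccnb1) carries cells into mitosis, CENP-H and CENP-K (Cenph, Cenpk) build the inner kinetochore, Cdk7 and Gtf2h2 belong to the general transcription factor TFIIH, and gp130 (Il6st) is the signalling receptor for LIF and the IL-6 family.

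Promoters were taken from RefSeq on GRCm38.p6, from 250 bases before to 50 after each start. They were found for 44 of the 48 listed genes, 52 promoters in all. Nnt, Depdc1b and Fst had no entry. The median GC content was 64.7%, against 52.7% over all 32851 promoters of the table, and the median number of CG steps was 28.5 against 7. The letters CCAAT, or ATTGG on the other strand, were in 22 of the 52 (42.3%) and in 37.4% of all promoters. The GC box GGGCGG, or CCGCCC, was in 37 (71.2%) and in 35.7% of all, TATAAA, or TTTATA, in 5 (9.62%) and in 13.6% of all, and the E-box CACGTG in 6 (11.5%) and in 7.15% of all. All promoters of the table were taken without a filter on expression, while the genes analysed here all passed a mean of 1 TPM. The sets are thus unlike, and these differences are not read as a trait of the interval. A promoter from each of 4 positions along the interval is shown, 5′ to 3′ on the strand of its gene, with every CCAAT or ATTGG in capitals, to set genes with the same box and different values side by side. The Ccnb1 promoter is chr13:100786437-100786736 (minus strand), that of Ppwd1 is chr13:104228795-104229094 (minus), that of Ercc8 is chr13:108158488-108158787 (plus) and that of Mrps30 is chr13:118387203-118387502 (minus).
Ccnb1: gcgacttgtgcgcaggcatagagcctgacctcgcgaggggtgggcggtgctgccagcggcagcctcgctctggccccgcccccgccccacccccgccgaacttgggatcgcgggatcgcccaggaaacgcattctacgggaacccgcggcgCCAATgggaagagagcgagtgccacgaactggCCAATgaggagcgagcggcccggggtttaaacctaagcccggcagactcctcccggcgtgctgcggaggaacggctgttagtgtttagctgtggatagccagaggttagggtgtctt
Ppwd1: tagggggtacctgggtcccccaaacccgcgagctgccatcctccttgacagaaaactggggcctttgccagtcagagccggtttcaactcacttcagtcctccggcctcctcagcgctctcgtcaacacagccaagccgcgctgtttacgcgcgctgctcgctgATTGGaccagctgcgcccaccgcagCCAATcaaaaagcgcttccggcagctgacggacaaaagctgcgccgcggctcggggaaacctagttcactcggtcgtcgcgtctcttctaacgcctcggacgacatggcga
Ercc8: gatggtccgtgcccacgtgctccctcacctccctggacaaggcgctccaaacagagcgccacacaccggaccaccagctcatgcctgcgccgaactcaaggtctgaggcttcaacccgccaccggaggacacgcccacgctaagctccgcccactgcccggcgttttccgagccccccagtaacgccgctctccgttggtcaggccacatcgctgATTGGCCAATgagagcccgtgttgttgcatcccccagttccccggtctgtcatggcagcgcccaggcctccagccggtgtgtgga
Mrps30: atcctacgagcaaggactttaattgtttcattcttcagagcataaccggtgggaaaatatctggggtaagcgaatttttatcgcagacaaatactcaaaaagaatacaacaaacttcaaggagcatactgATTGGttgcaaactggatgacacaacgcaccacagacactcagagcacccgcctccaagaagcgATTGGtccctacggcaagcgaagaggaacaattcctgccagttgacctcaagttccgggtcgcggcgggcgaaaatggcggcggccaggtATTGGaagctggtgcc
All 4 carry at least 2 copies of the box. On the log2(TPM + 1) scale the difference of HM from HetKO was -0.11 for Ccnb1, 1.03 for Ppwd1, -0.49 for Ercc8 and 0.85 for Mrps30. The 4 were picked to differ in value, and a link between the box and the values was not tested. A match is a description of letters and says nothing of a factor bound there.

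Values are TPM, transcript abundance scaled to a fixed total, which the authors quantified with RSEM and which sum to about 1000000 in every sample. How many reads stand behind a value is therefore unknown. Dicer1 ran from 49.2 to 54.8 TPM in WT, from 42.9 to 53.8 in HetKO and from 35.4 to 44.2 in HM. The 8 pluripotency markers summed to between 2453 and 3140 TPM in every sample, mostly from Pou5f1 (1814 to 2244 TPM). Other members of that list parted by line. Nanog was at 26.4 to 62.4 TPM in WT, 50.04 to 112 in HetKO and 12.5 to 26.6 in HM, and Sall4 at 20.2 to 27.9, 34.3 to 69.5 and 0.63 to 13.5, while Sox2, Utf1 and Fgf4 were higher in every HM sample than in any other. The 4 endoderm markers summed to at most 4.02 TPM, 3 neural markers to at most 2.52, 3 fibroblast markers to at most 9.96 and the blood marker Ptprc to at most 0.1. Samples within a line fell into pairs that were more alike. Among 683 genes at or above 200 TPM on average, log2 differences had a robust SD of 0.0493 to 0.0746 within WT pairs (1 and 4, 2 and 5, 3 and 6) and 0.073 to 0.205 between them, 0.051 to 0.0696 and 0.164 to 0.358 in HetKO (same numbers), and 0.0595 to 0.106 and 0.168 to 0.279 in HM (1 and 4, 2 and 3, 5 and 6). Nothing in the labels says whether samples came from separate cultures, so p-values measure the spread between these samples, which may be technical. WT replicates 1 and 4 also stood apart from the other 4 WT samples over the whole transcriptome. Both lay above all 4 for 19.3% of the genes averaging 1 TPM or more in WT and below all 4 for 32.8%.

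That these genes stood higher in HM held for only part of the interval, and it depended on which WT samples were used. On the log2(TPM + 1) scale, with values as deposited, 38 of the 47 genes were higher in HM than in WT and 9 were lower. The median difference was 0.36, against -0.09 over all 14043 genes. It was 0.54 with samples centred on their median and 0.43 with quantile normalization, so the count of lower genes depends on the scaling. Against HetKO, 39 were higher in HM and 8 lower, with a median of 0.62, against -0.05 over all 13762 genes. Without WT 1 and 4 the median of HM above WT was 0.51, with 40 genes higher and 7 lower. The median of HetKO was 0.29 below WT (a difference of -0.29), and -0.11 without WT 1 and 4. In bulk RNA, fewer cells that make a transcript and less of it per cell cannot be told apart.

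Taken in order along the chromosome, the genes fell into 4 stretches, whose borders were set after the values were seen. The first holds 10 genes from Smn1 to Pik3r1 (100.1 to 101.8 Mb), the second 11 from Erbin to Kif2a (103.8 to 107.0 Mb), the third 5 from Zswim6 to Depdc1b (107.7 to 108.4 Mb) and the fourth 21 from Pde4d to Zfp131 (108.4 to 119.8 Mb). The median difference of HM from HetKO was 0.04, 1.03, -0.14 and 0.82 in these 4 stretches. By mean log2(TPM + 1), all 11 genes of the second and all 21 of the fourth were higher in HM than in HetKO. All 5 of the third were lower, and the first had 7 higher and 3 lower. Of the promoters matched, 6 of 13 in the first stretch held CCAAT, 8 of 14 in the second, 2 of 4 in the third and 6 of 21 in the fourth. The median difference of HM from WT was 0.10, 0.53, -0.05 and 0.47. Scaling moved these. The median over all genes was -0.09 as deposited, 0.08 with samples centred on their median and 0.02 with quantile normalization, and the third stretch went from -0.05 to 0.13 and 0.11, so its sign depends on the scaling. The second stretch was at 0.71 and 0.59 and the fourth at 0.65 and 0.56.

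**Figure D1:**
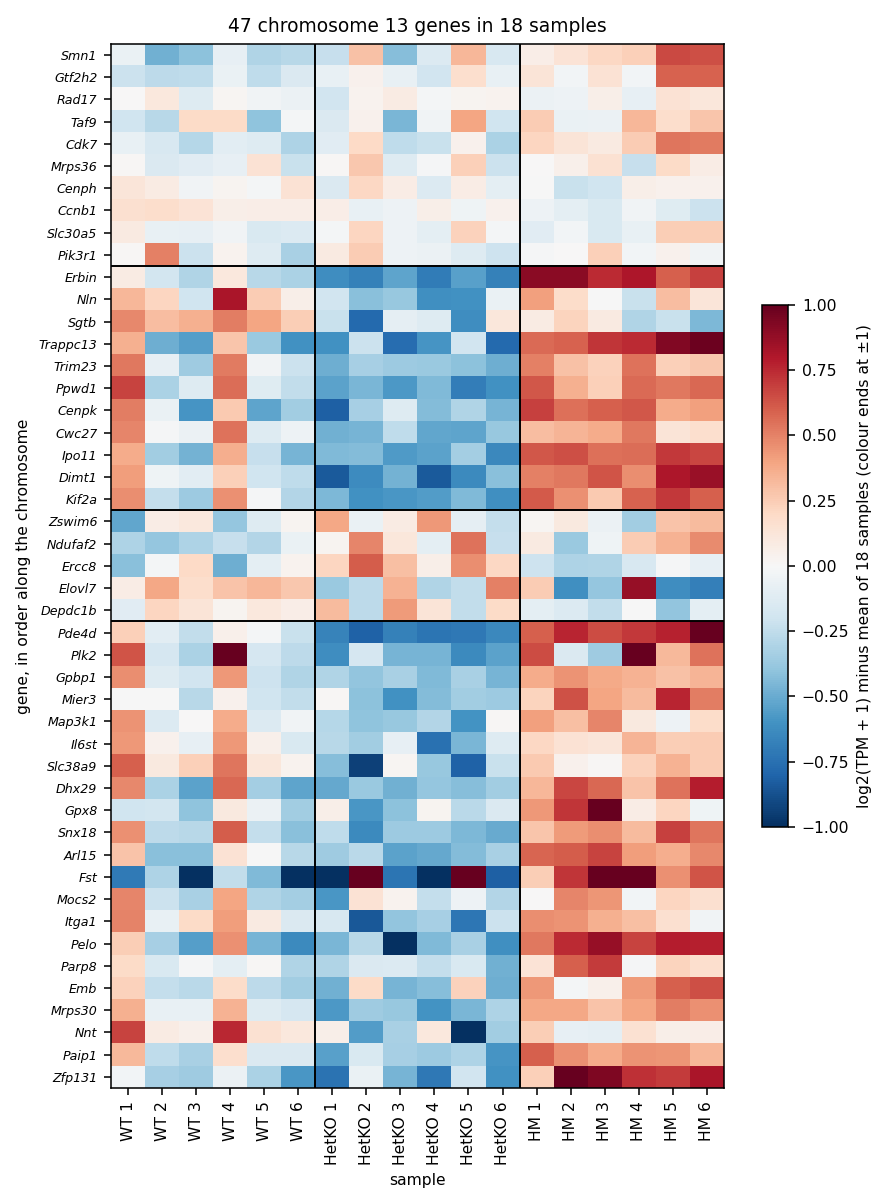
Heat map of the 47 genes (rows, in order along the chromosome) in the 18 samples (columns), coloured by log2(TPM + 1) minus the gene's mean over 18 samples. Black lines part the lines of cells and the 4 stretches. In the second stretch and the fourth HM, WT 1 and WT 4 are mostly red and HetKO is mostly blue, and the first stretch and the third do not show this. Exceptions include Sgtb, below its mean in HM 4 to 6, and Fst, above its mean in HetKO 2 and 5 and below it in WT 1 and 4.

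Each sample was then placed by its median over the genes of a stretch, as log2(TPM + 1) minus the mean of the 18 samples. In the second stretch WT 1 and 4 were both at 0.47 and 0.46, the other 4 WT samples from -0.30 to -0.08, HetKO from -0.54 to -0.46 and HM from 0.37 to 0.57. WT 1 and 4 lay inside the HM range there and far from their own line. In the fourth stretch WT 1 and 4 were at 0.35 and 0.37, the other WT samples from -0.28 to -0.14, HetKO from -0.43 to -0.36 and HM from 0.34 to 0.46. In the first stretch WT ran from -0.14 to 0.01, HetKO from -0.13 to 0.20 and HM from -0.03 to 0.18, all overlapping. In the third stretch WT 1 and 4, at -0.31 and -0.23, were the lowest WT samples, the other WT samples ran from -0.10 to 0.13, HetKO from -0.09 to 0.30 and HM from -0.31 to 0.02. The order of the samples in the third stretch was thus the other way round for WT 1 and 4, and HM overlapped both other lines.

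**Figure D2:**
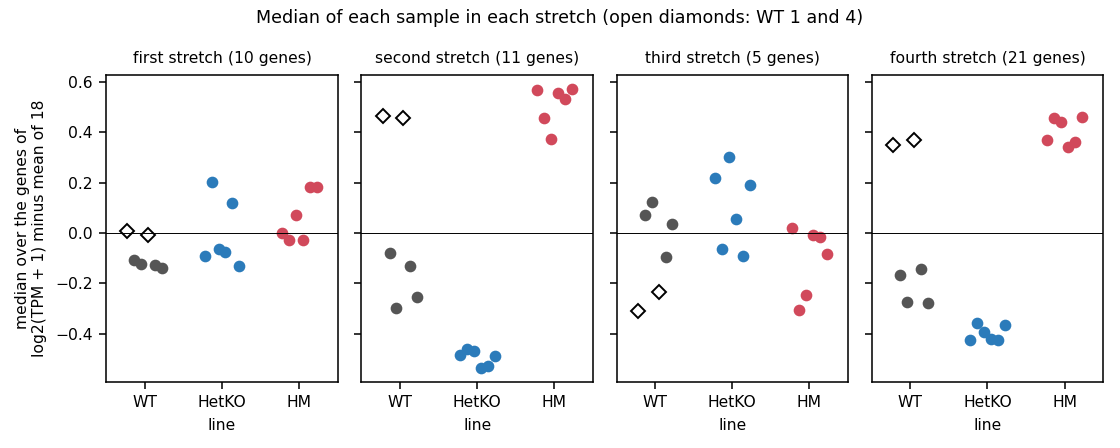
Median over the genes of each stretch of log2(TPM + 1) minus the mean of 18 samples (vertical axis), 1 point per sample, by line (horizontal axis). Open diamonds are WT 1 and 4, which sit at HM levels in the second stretch (0.47 and 0.46) and the fourth (0.35 and 0.37).

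HM samples did not overlap WT samples, with HM above, for 14 of the 47 genes (29.8%), while 10.6% of all genes tested did so. HM lay below all WT samples for 2, Ccnb1 and Sgtb (18% of all genes). HM lay above all HetKO samples for 22 (46.8%, all genes 6.23%), 9 in the second stretch and 13 in the fourth, and below all of them for 1, Ercc8 (all genes 9.27%). With WT 1 and 4 left out, HM lay above the other 4 WT samples for 27 genes (57.4%, all genes 15.5%). These contrasts chose the interval, so nothing is read from the shares. WT 1 and 4 both lay above the other 4 WT samples for 31 of the 47 (66.0%, all genes 19.3%). These were all 11 of the second stretch, 17 of the fourth, 3 of the first and none of the third. WT 1 and 4 lay below the other WT samples for 3, Zswim6, Ercc8 and Depdc1b, all in the third stretch (all genes 32.8%). WT samples also entered the choice of the interval, so nothing is read from these shares either. WT 1 and 4 were both within the HM range for 14 genes. The share of all genes within that range was not computed, so nothing is read from this count.

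**Figure D3:**
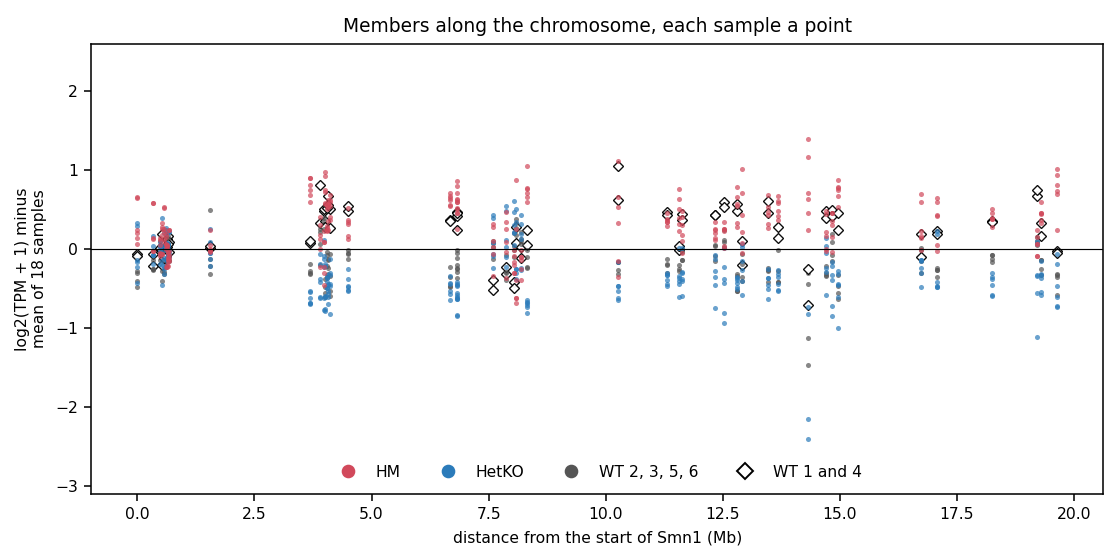
Each of the 47 genes in each of the 18 samples, as log2(TPM + 1) minus the gene's mean (vertical axis), against the distance of the gene from the start of Smn1 in Mb (horizontal axis). Open diamonds are WT 1 and 4. HM points lie above all HetKO points for 9 of the 11 genes of the second stretch and 13 of the 21 of the fourth. The cluster near 8 Mb, the third stretch, is mixed. The Fst values of HetKO 2 and 5, at 2.97 and 2.83 and above every HM point, lie beyond the top of the axis and are not shown.

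The median over the rest of the chromosome was less spread. Over 456 genes of chromosome 13 before 100 Mb, sample medians ran from -0.13 to 0.12, with WT 1 and 4 at 0.02 and 0.01. Single windows there did part, as in the 12 genes from 75 to 80 Mb, where HM ran from -0.43 to -0.23, WT 1 and 4 were at -0.07 and -0.17, the other WT samples ran from 0.18 to 0.36 and HetKO from 0.06 to 0.30. Windows of 5 Mb with at least 5 genes over the genome, 490 in all, were ranked from the highest. The window from 110 to 115 Mb had rank 2 in WT 1, rank 3 in WT 4 and ranks 2 to 7 in HM. It had ranks 481 to 488 in HetKO and 472 to 490 in the other WT samples. The window from 115 to 120 Mb had ranks 3 to 48 in HM and 409 to 488 in HetKO. Ranks were 11 to 31 and 326 to 483 from 100 to 105 Mb, and 5 to 142 and 188 to 454 from 105 to 110 Mb. The interval was picked for its shift in these samples, so nothing is read from the ranks. In the window from 110 to 115 Mb the medians ran from 0.32 to 0.47 in HM and from -0.44 to -0.33 in HetKO. The window from 100 to 105 Mb, with genes of the first stretch and the second, ran from 0.15 to 0.26 in HM and from -0.22 to -0.08 in HetKO, with WT 1 and 4 at 0.12 and 0.10. The window from 105 to 110 Mb, which mixes genes of the second stretch, the third and the fourth, ran from -0.01 to 0.27 in HM and from -0.17 to 0.08 in HetKO.

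**Figure D4:**
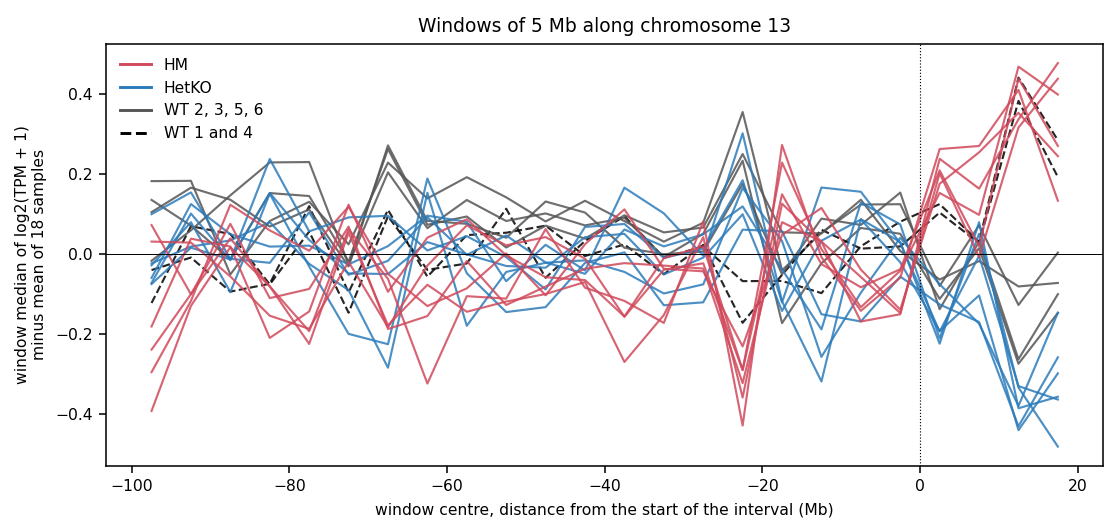
Median of log2(TPM + 1) minus the mean of 18 samples in windows of 5 Mb along chromosome 13 (vertical axis), against the distance of the window's centre from the start of the interval in Mb (horizontal axis), 1 line per sample. From 0 to 5 Mb and from 10 Mb on, every HM sample is above every HetKO sample, and WT 1 and 4 (dashed) are above the other WT samples.

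Values for single genes are given below by what the products do. For each line they are the lowest, median and highest TPM of 6 samples, except that WT 1 and 4 are given apart where they stood away from the other 4. Differences are of mean log2(TPM + 1), which understates the change of genes at low TPM. They use values as deposited, and centring raises HM against WT, so small negative differences may change sign.

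Of 6 genes of cell division, 3 were higher in HM than in WT and 3 lower, and they split by position. Ccnb1, cyclin B1, had 239.8, 247 and 259 TPM in WT, 218, 230.3 and 241 in HetKO and 198, 213 and 225 in HM. HM was below all WT samples, by a difference of -0.22. Its relative Ccnb1-ps is a pseudogene that may take some of its reads. Cenph, of the inner kinetochore, had 45.9, 48.9 and 52.1 TPM in WT, 42.5, 46.7 and 54.4 in HetKO and 40.1, 47.8 and 49.1 in HM, a difference of -0.10 between HM and WT with overlapping samples. Depdc1b, a DEP-domain protein of the third stretch, had 18.5 and 20.5 TPM in WT 1 and 4, 21.1 to 23.5 in the other WT samples, 16.6, 22.6 and 27.4 in HetKO and 15.1, 18.5 and 20.01 in HM, and HM was -0.23 from WT. These genes of the first stretch and the third were level or lower in HM in the values as deposited.
Cenpk, which sits in the same kinetochore complex as Cenph, had 54.1 and 45.3 TPM in WT 1 and 4, 24.6 to 35.96 in the other WT samples, 20.9, 28.6 and 34.4 in HetKO and 49.1, 56.4 and 61.1 in HM. HM was above every HetKO sample and 0.66 above WT, but WT 1 reached the HM values. Kif2a, a kinesin that takes microtubules apart, had 42.3 and 42.1 TPM in WT 1 and 4, 23.3 to 30.1 in the other WT samples, 19.5, 20.1 and 22.1 in HetKO and 36.5, 46.3 and 50.2 in HM, and HM was 1.08 above HetKO and 0.53 above WT. Plk2, a polo-like kinase, was the lowest-expressed gene of the 47 and had 2.54 and 3.74 TPM in WT 1 and 4, 0.840 to 1.04 in the other WT samples, 0.470, 0.620 and 1.04 in HetKO and 0.790, 2.10 and 3.97 in HM. Its WT 1 and 4 values were among the HM values and above the other WT samples. Cenph and Cenpk, partners in 1 complex on either side of the border between the first and second stretches, thus differed in position and in value.

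Of 8 genes of transcription and DNA repair, 7 were higher in HM than in WT. Gtf2h2, a core subunit of TFIIH, had 48.1, 49.2 and 55.3 TPM in WT, 50.6, 55.1 and 65.3 in HetKO and 56.8, 63.9 and 87.7 in HM, with HM above all WT samples and 0.43 above their mean. Cdk7, the kinase of the same complex, had 38.2, 42.9 and 45.1 TPM in WT, 38.2, 42.4 and 54.96 in HetKO and 50.7, 56.3 and 69.7 in HM, and HM was 0.47 above WT, again with no overlap. Both, with Smn1, are genes of the first stretch with HM above all WT samples, and their highest values were in HM 5 or 6. Rad17, the clamp loader of the DNA damage checkpoint, had 23.8, 25.9 and 28.2 TPM in WT, 22.8, 26.8 and 27.8 in HetKO and 24.7, 26.3 and 28.97 in HM, and Taf9, a TFIID subunit, had 12.9, 16.1 and 20.02 TPM in WT, 12.3, 16.3 and 23.1 in HetKO and 16.5, 20.3 and 22.1 in HM. The lines overlapped for both, at differences of 0.04 and 0.24 between HM and WT. Taf9 starts 528 bases from Rad17 on the other strand and lies inside the span of Ak6, on the same strand, which was at 168 to 219 TPM, so reads may be shared.
Ercc8, the CSA protein that starts repair of transcribed genes, had 14.3 and 13.6 TPM in WT 1 and 4, 18.1 to 22.5 in the other WT samples, 20.3, 23.5 and 30.2 in HetKO and 15.6, 17.01 and 19.2 in HM. HM was below every HetKO sample, at -0.49, and inside the WT range, with WT 1 and 4 the lowest of WT. Zfp131, a zinc finger protein and the last gene along the chromosome, had 19.7 and 19.3 TPM in WT 1 and 4, 13.1 to 15.9 in the other WT samples, 11.7, 13.6 and 19.2 in HetKO and 23.9, 35.1 and 41.7 in HM. HM was above every WT and HetKO sample, by 1.02 and 1.20. The chromatin protein Mier3 and the promoter-binding protein Gpbp1 were 0.59 and 0.35 above WT in HM, and for Gpbp1 WT 1 and 4 were at 62.0 and 60.6 TPM, within or above the HM range of 54.9 to 61.5.

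All 7 genes of RNA processing and translation were higher in HM than in WT and HetKO, and WT 1 and 4 were above the other WT samples for all 7. Smn1, the first gene along the chromosome and the core of the complex that loads Sm rings on spliceosomal RNAs, had 78.9 and 78.1 TPM in WT 1 and 4, 59.2 to 67.96 in the other WT samples, 61.3, 74.7 and 104 in HetKO and 86.7, 96.6 and 132 in HM. HM was 0.60 above WT with no overlap. Pelo, which rescues stalled ribosomes, had 24.97 and 29.2 TPM in WT 1 and 4, 13.1 to 16.4 in the other WT samples, 9.98, 15.1 and 17.2 in HetKO and 30.7, 36.3 and 39.2 in HM, and HM was above every other sample by 0.95 against WT and 1.25 against HetKO. Pelo lies inside the span of Itga1, on the same strand, so reads there may be shared. Dimt1, which methylates the small ribosomal RNA, had 31.2 and 27.5 TPM in WT 1 and 4, 19.2 to 22.4 in the other WT samples, 12.5, 14.5 and 17.1 in HetKO and 32.2, 35.05 and 42.8 in HM. HM was above, and HetKO below, every WT sample.
The spliceosome cyclophilins were less far apart. Ppwd1 had 44.5 and 41.03 TPM in WT 1 and 4, 21.9 to 25.2 in the other WT samples, 16.7, 18.4 and 19.97 in HetKO and 32.7, 40.8 and 42.99 in HM, and WT 1 was above every HM sample. Cwc27 had 36.1 and 37.6 TPM in WT 1 and 4, 23.2 to 25.3 in the other WT samples, 17.4, 18.2 and 21.2 in HetKO and 27.97, 32.3 and 37.1 in HM, and WT 4 was above every HM sample. HM was nonetheless 1.03 and 0.74 above HetKO without overlap. The helicase Dhx29, which helps initiation on structured messages, and Paip1, which binds the poly(A)-binding protein, were 0.64 and 0.50 above WT in HM.

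Of 8 genes of mitochondria and metabolism, 5 were higher in HM than in WT and 3 lower. Mrps30, a protein of the mitochondrial ribosome, had 38.6 and 38.4 TPM in WT 1 and 4, 26.6 to 28.5 in the other WT samples, 19.5, 22.2 and 24.1 in HetKO and 36.7, 39.7 and 43.2 in HM, and HM was 0.36 above WT and 0.85 above HetKO. WT 1 and 4 were inside the HM range. Mrps36, named as a protein of the same ribosome and lying in the first stretch, had 72.4, 79.02 and 93.7 TPM in WT, 72.8, 84.5 and 102 in HetKO and 72, 88.4 and 96.8 in HM, a difference of 0.11 with full overlap. It has 3 annotated pseudogenes, which may take reads. Ndufaf2, an assembly factor of complex I, had 30.8, 32.8 and 38.6 TPM in WT, 34.5, 42.7 and 59.4 in HetKO and 31.1, 45.98 and 56.7 in HM, and HM and HetKO overlapped.
Nnt, the transhydrogenase that makes mitochondrial NADPH, had 31.04 and 32.8 TPM in WT 1 and 4, 19.8 to 21.2 in the other WT samples, 8.28, 14.9 and 20.6 in HetKO and 17.8, 19.9 and 22.8 in HM. HM overlapped the other WT samples and was -0.24 from the WT mean, and HetKO had the lowest median. A second gene model with the name Nnt was at 0 in all samples but HetKO 5, where it had 4.54 TPM. Mocs2, which makes the molybdenum cofactor, had 26.99 and 25.3 TPM in WT 1 and 4, 14.8 to 16.3 in the other WT samples, 12.3, 17.1 and 21.1 in HetKO and 18.6, 21.8 and 26.96 in HM, with WT 1 just above every HM sample. Elovl7, a fatty acid elongase of the third stretch, had 2.77, 3.34 and 3.69 TPM in WT, 1.77, 2.01 and 4.09 in HetKO and 1.23, 1.54 and 5.56 in HM, and HM was -0.45 from WT. The peptidase Nln and the glutathione peroxidase homologue Gpx8 were at -0.11 and 0.58.

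Of 7 genes of transport and trafficking, 5 were higher in HM than in WT. Trappc13, of the TRAPP complexes that tether vesicles, had 59.3 and 55.9 TPM in WT 1 and 4, 29.9 to 35.3 in the other WT samples, 26.4, 30.03 and 40.2 in HetKO and 68.8, 76.99 and 91.5 in HM, and HM was above every other sample, by 0.98 against WT and 1.28 against HetKO. Its head-to-head neighbour Trim23, which starts 328 bases away, was 0.29 above WT in HM, with WT 1 and 4 at 16.0 and 15.9 TPM near the top of the HM range. Sgtb, a co-chaperone, had 10.6 and 10.9 TPM in WT 1 and 4, 8.92 to 9.99 in the other WT samples, 3.88, 6.38 and 8.02 in HetKO and 5.11, 7 and 8.74 in HM. It was the only gene of the second stretch with HM below all WT samples, at -0.48. It starts 127 bases from Nln, which was also lower in HM, at -0.11, with overlapping samples. HetKO and HM overlapped for Sgtb, at 0.19.
Slc38a9, the lysosomal arginine sensor upstream of mTORC1, had 14.6 and 13.9 TPM in WT 1 and 4, 9.53 to 11.2 in the other WT samples, 4.39, 6.79 and 9.42 in HetKO and 9.37, 11.2 and 12.1 in HM, and HM was level with WT, at -0.08. The importin Ipo11 was 0.75 above WT with no overlap, and the small GTPase Arl15 0.64, also with none. The zinc carrier Slc30a5, in the first stretch, was at 0.09.

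All 8 genes of signalling and adhesion were higher in HM than in WT and HetKO by mean log2(TPM + 1). By mean TPM, Fst was instead lower in HM (45.3) than in HetKO (71.1). Erbin, a scaffold that binds the receptor Erbb2, had 6.86 and 6.99 TPM in WT 1 and 4, 4.96 to 5.54 in the other WT samples, 3.59, 3.74 and 4.15 in HetKO and 10.3, 11.8 and 12.9 in HM. The 3 lines did not overlap, with HM highest and HetKO lowest, and HM was 0.92 above WT. Pde4d, which breaks down cyclic AMP, had 11.95 and 10.4 TPM in WT 1 and 4, 8.29 to 9.86 in the other WT samples, 5.26, 5.79 and 6.03 in HetKO and 15.6, 17.3 and 21.9 in HM, again with 3 separate lines and HM 0.81 above WT. Fst, follistatin, which binds activin, had the largest difference of the 47 at 1.48 and had 15 and 20.98 TPM in WT 1 and 4, 8.41 to 20.1 in the other WT samples, 3.91, 14.3 and 204 in HetKO and 29.9, 40.6 and 67.8 in HM. HM was above all WT samples, but HetKO 2 and 5 were at 204 and 185 TPM, above every HM sample, and the other 4 HetKO samples at most at 14.7.
The early mesoderm factor T (brachyury) was high in the same samples. It was at 110 and 66.2 TPM in HetKO 2 and 5, at most 9.13 in the other HetKO samples, 3.45 to 8.6 in WT and 10.9 to 41.9 in HM. The 3 mesoderm markers T, Tbx6 and Mixl1 summed to 6.96 to 12.01 TPM in WT, 3.92 to 114 in HetKO and 13.4 to 43.5 in HM, mostly from T. Tbx6 was instead lowest in HM, at 0.56 to 1.3 TPM against 1.86 to 3.68 in WT and 1.92 to 2.73 in HetKO. None of them was at 0, and their part in the Fst values was not tested.
Il6st had 14.98 and 15.01 TPM in WT 1 and 4, 9.67 to 11.3 in the other WT samples, 6.05, 8.55 and 10.2 in HetKO and 11.9, 12.9 and 14.03 in HM, and HM was 0.10 above WT with WT 1 and 4 above every HM sample. Map3k1, a kinase above JNK, had 20.5 and 19.3 TPM in WT 1 and 4, 13.3 to 14.8 in the other WT samples, 9.38, 11.4 and 14.8 in HetKO and 14.1, 17.6 and 21 in HM, at 0.15. Pik3r1, a regulatory subunit of PI3-kinase in the first stretch, had 1.76, 2.32 and 3.88 TPM in WT, 1.98, 2.33 and 3.12 in HetKO and 2.36, 2.44 and 3.07 in HM, at 0.06. The integrin subunit Itga1 and the adhesion protein Emb were at 0.12 and 0.47, and Emb had WT 1 and 4 within the HM range. The remaining genes of the 47, Zswim6, Parp8 and the sorting nexin Snx18, were 0.19, 0.36 and 0.47 above WT in HM.

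**Figure D5:**
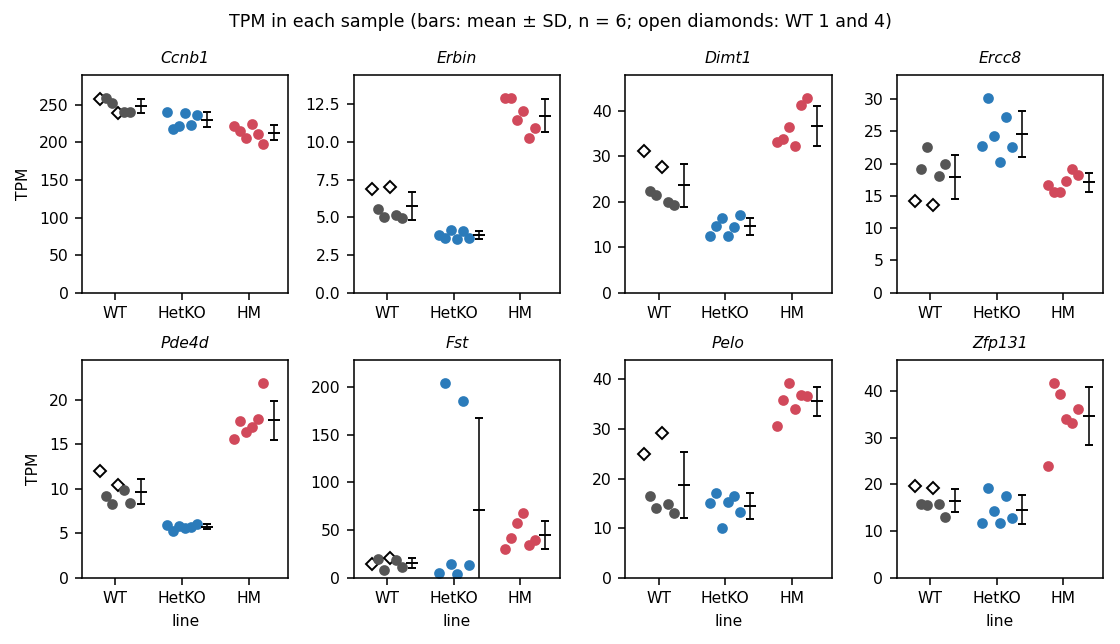
TPM of 8 genes (vertical axes, from 0) in every sample by line, with the mean ± SD of 6 samples in black and WT 1 and 4 as open diamonds. Erbin, Dimt1 and Pde4d have 3 separate lines, Ercc8 has its highest values in HetKO, and Fst is high in HetKO 2 and 5.

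HetKO and WT samples both entered the choice of the interval, through the mean of all 18 samples, so the calls between these lines are not independent of it and are given as a description. With limma on log2(TPM + 1), adjusted over 13999 genes, 12 of the 47 genes passed 0.05. Of these, 11 were lower in HetKO (23.4%, against 6.44% of all genes) and 1 higher (all genes 3.71%). The 11 were 7 of the 11 genes of the second stretch and 4 of the 21 of the fourth. No gene of the first stretch passed. Nothing is read from these shares.
In the second stretch the scaffold Erbin differed by -0.48 (SE 0.10), the peptidase Nln by -0.63 (SE 0.15) and the co-chaperone Sgtb by -0.67 (SE 0.14) on the log2 scale. Ppwd1 and Cwc27, the spliceosome cyclophilins, were at -0.62 (SE 0.16) and -0.56 (SE 0.12). Dimt1 was at -0.65 (SE 0.12) and Kif2a at -0.55 (SE 0.14). By their means, 2 of these 7 genes (Nln and Sgtb) were lower in HM than in WT and 5 were higher.
In the fourth stretch Pde4d was at -0.66 (SE 0.09). Slc38a9 was at -0.73 (SE 0.16), Itga1 at -0.61 (SE 0.16) and Mrps30 at -0.49 (SE 0.11). Ercc8 in the third stretch was the gene that rose, by 0.44 (SE 0.13).
These calls depended on which samples counted as replicates. Without WT 1 and 4, 8 genes passed, all lower in HetKO (17.0%, all genes 5.26% lower and 2.54% higher) and all among the 12. They were Erbin, Sgtb, Ppwd1, Cwc27, Dimt1, Kif2a, Pde4d and Mrps30. With the means of alike pairs as 3 replicates a line, limma called none of the 47, 15 had an unadjusted p under 0.05 (13 of them lower), and the adjusted p of the 12 genes ran from 0.172 to 0.474. An unequal-variance test on the 12 samples called 6.

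Genes elsewhere in the genome whose products work with those of the 47 were taken as 19 lists of 204 partner genes, 200 of them tested. Between HM and WT, limma called 48 higher and 69 lower, a share of 24% and 34.5% of those tested, against 19.4% and 32.0% of all genes. The shares lie close to those of all genes. The split depended on the scaling. With samples centred it was 77 higher and 33 lower (all genes 32.1% and 20.5%) and with quantile normalization 58 and 55 (all genes 25.9% and 24.8%). Without WT 1 and 4, 116 were called, 107 of them among the 117. With pair means 50 were called, all 50 among the 117. Of the 58 partners picked for naming, 25 lost the call with pair means, and not each of these is marked below.
Of 8 other TFIIH subunits tested, partners of Cdk7 and Gtf2h2, 5 rose and none fell in HM, with a median of 0.25 (0.43 centred, 0.31 with quantile normalization). The largest were Gtf2h1 (0.45, adjusted p = 0.0027) and the helicase Ercc2 (0.44, adjusted p = 0.00364). Of 8 partners of Smn1 in the SMN complex, 5 rose and 1 fell, with a median of 0.41 (6 and 0 with samples centred). Ddx20, a helicase of that complex, had 25.1, 27.3 and 31.9 TPM in WT and 34.6, 51.9 and 69.8 in HM, without overlap (0.86, adjusted p = 0.000543), and it also rose in HetKO (0.86, adjusted p = 0.00171). Gemin4 rose (0.66, adjusted p = 0.00047) and Gemin8 fell (-0.49, adjusted p = 0.0121, 0.0983 with pair means).
Of 27 other genes with Mrps symbols, listed by name for the small mitochondrial ribosome subunit, 11 rose and 3 fell. Their median was 0.21 (17 and 0 called with samples centred). The name alone does not place each product in that subunit. Mrps18b had 59.3, 63.03 and 77.9 TPM in WT and 95.9, 109 and 144 in HM (0.80, adjusted p = 0.000104) and Mrps18c rose by 0.47, while Mrps10 (-0.28, adjusted p = 0.00115) and Mrps9 (-0.25, adjusted p = 0.000676, 0.0592 with pair means) fell. Of 10 spliceosome-associated partners of Ppwd1 and Cwc27, 5 rose and 3 fell, with a median of 0.17. Cwc25 (0.36, adjusted p = 0.000618, 0.0511 with pair means) and Ppil1 (0.36, adjusted p = 0.00138) rose and Ppig (-0.49, adjusted p = 0.000511) fell. Cwc22 was at -0.13, adjusted p = 0.0339, but it was at 0.05 with samples centred and had an adjusted p of 0.27 with pair means. Of 13 TFIID partners of Taf9, 4 rose and 2 fell, with Taf13 at 0.88, adjusted p = 0.000271 and Taf8 at -0.64, adjusted p = 1e-05.
Partners of Ccnb1 and Kif2a were mostly lower in HM in the values as deposited. Of 13 genes of mitotic entry around Ccnb1, 2 rose and 8 fell, with the CDK1 inhibitor Pkmyt1 at -1.03, adjusted p = 0.000115 and the phosphatase Cdc25b at -0.88, adjusted p = 0.000286. The phosphatase Cdc25a (0.39, adjusted p = 0.00955, 0.104 with pair means) and the inhibitor Wee1 (0.31, adjusted p = 0.000184) rose. Of 11 mitotic kinesins, 7 fell and 1 rose, with Kif14 at -0.52, adjusted p = 9.6e-05 and Kif15 at -0.44, adjusted p = 0.000347. With samples centred the calls were 4 higher and 5 lower for mitotic entry and 1 and 4 for kinesins. Of 13 inner centromere partners of Cenph and Cenpk, 4 rose and 2 fell (5 and 0 with samples centred), and the largest rises, Cenps at 0.35 and Cenpu at 0.33, were not called with pair means (adjusted p = 0.125 and 0.0541). Of 12 checkpoint partners of Rad17, 4 fell and 1 rose, with the kinase Atr, at 29.7, 31.6 and 33.6 TPM in WT and 10.02, 15.6 and 17.6 in HM, the farthest (-1.09, adjusted p = 3.3e-05).
Signalling and trafficking partners were also mostly lower as deposited, less so with samples centred, where calls were 1 higher and 2 lower in the gp130 list, 3 and 4 in TRAPP and 2 and 3 in Ragulator and mTORC1. In the gp130 list 5 of 8 fell and 1 rose. Il11ra1 had 9.54, 11.7 and 14.6 TPM in WT and 3.31, 4.34 and 6.59 in HM (-1.18, adjusted p = 3.4e-05) and the feedback inhibitor Socs3 was at -0.80, adjusted p = 0.00149, while the receptor Cntfr rose (0.80, adjusted p = 0.00077). Of 13 TRAPP subunits 7 fell and 1 rose. Trappc9 was at -1.01, adjusted p = 2.9e-05 and Trappc6a at -0.75, adjusted p = 0.000968, and the gene that rose was Trappc2 (0.81, adjusted p = 0.000552). Of 10 Ragulator and mTORC1 genes beside Slc38a9, 6 fell and none rose, with Rragc at -0.50, adjusted p = 0.000112. In the JNK list 4 of 8 fell, with Mapk9 at -0.40, adjusted p = 0.000724, and with samples centred 2 rose and 2 fell.
In the other lists calls went both ways or depended on the scaling. Class IA PI3-kinase had 2 higher and 1 lower of 6, with Pik3r3, a regulatory subunit like Pik3r1, at 0.83, adjusted p = 0.00172. Of 7 activin pathway genes 3 fell and 1 rose, and Smad3, at -0.50, adjusted p = 0.0173, was not called with pair means (adjusted p = 0.129). Ribosome rescue had 3 lower and 1 higher of 6, with Gtpbp2 at -0.49, adjusted p = 0.000405, Ascc3 at -0.47, adjusted p = 0.000225 and Abce1, which splits ribosomes for recycling, at 0.27, adjusted p = 0.00435. Transcription-coupled repair had 4 of 10 lower (3 lower and 3 higher with samples centred), complex I assembly 5 lower and 3 higher of 13 (1 and 5 with samples centred, 2 and 4 with quantile normalization), with Ndufaf7 at -0.98, adjusted p = 1.4e-05, and the molybdenum cofactor list had Mocs3 at 0.88, adjusted p = 0.000398 and 1 gene lower of 4. With samples centred the list median changed sign for mitotic entry, the inner centromere, the checkpoint, transcription-coupled repair, complex I assembly, the activin pathway and ribosome rescue.
Between HetKO and WT, 10 partner genes rose and 8 fell of 200 tested (5% and 4%, against 3.71% and 6.44% of all genes). The split was 14 and 4 with samples centred and 12 and 13 with quantile normalization, and with pair means limma called none, with 15 at an unadjusted p under 0.05. Taf13 rose by 0.99, adjusted p = 0.00041, and Cntfr by 0.69, adjusted p = 0.0105.

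Other genes of the interval are described too, and since the interval was picked for its shift they are no independent support. Of 308 gene models there, 105 are coding and 74 averaged 1 TPM or more, of which 27 are not in the list and 20 of these are coding. Of the 20, 15 were higher in HM than in WT and 17 higher than in HetKO (41.5% and 44.3% of all genes tested were), with medians of 0.21 and 0.64. Among the 7 in the first stretch, 6 were higher than WT and 5 higher than HetKO, and their median above HetKO of 0.34 was larger than the 0.04 of the listed genes there. The tight junction genes Marveld2 and Ocln were 1.20 and 0.82 above HetKO. In the second stretch 2 of 4 were higher than WT, with a median of 0.08, and 4 of 4 higher than HetKO, with a median of 0.64. In the fourth stretch 7 of 8 were higher than WT and 8 of 8 higher than HetKO, with medians of 0.31 and 0.86. The 1 in the third, Smim15, was lower than HetKO at -0.42. Hmgcs1, an enzyme of sterol synthesis in the fourth stretch, was 1.33 above HetKO in HM, and Srek1, a splicing regulator just before Erbin, 0.86. These genes were picked for naming after their values were seen.
The 3 gene models on either side of the 47 were mixed. Mccc2, an enzyme of leucine breakdown before 100 Mb, had 14.5, 15.7 and 17.9 TPM in WT, 16.8, 17.8 and 21.7 in HetKO and 6.68, 8.22 and 9.98 in HM, a difference of -0.85 from WT and -1.08 from HetKO without overlap. Bdp1, of the RNA polymerase III factor TFIIIB, lies between Mccc2 and Smn1 and inside the interval. It ran from 34.8 to 43.9 TPM in HM, above every WT sample (27.0 to 30.7) and every HetKO sample (26.4 to 33.2), by 0.37 and 0.34. Serf1, beside Smn1, was at 0.17 and -0.22. After Zfp131, the pseudogenes Gm20784 and Gm21378 ran from 0 to 4.25 and from 0 to 4.84 TPM over the 18 samples. Gm21731 was listed at 0 in all WT and HetKO samples and in 4 HM samples, and at 20.6 and 24.9 TPM in HM 2 and 3, which are an alike pair. No fold is given for these 3.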

How the data were processed

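mRNA was measured by poly(A)-selected, stranded, paired-end sequencing in 6 WT, 6 HetKO and 6 HM samples of P19 cells. Per the methods, pairs were merged by BBMerge and genes were quantified by RSEM. The authors deposited TPM to 2 decimals for 55450 genes. The submitters' processing notes name mm10, cutadapt and STAR. The strand setting used in counting is not given in the sources used here, so overlapping genes such as Dimt1 and Kif2a may share reads. TPM keeps no depth, so no counting interval or detection floor was set. All 55450 identifiers matched the GENCODE annotation of GRCm38.

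Each comparison used its own 12 samples and the genes whose mean reached 1 TPM in them. limma 3.58.1 (trended variance, R 4.3.3) was run on log2(TPM + 1), with Benjamini-Hochberg adjustment over all genes and a threshold of 0.05. limma was also run on simulated data with normal noise, independent between the 12 samples, and 200 genes changed by 1 on the log2 scale. It recovered 164 with 6 false calls in HM against WT among 14043 genes, and 171 with 9 false calls in HetKO against WT among 13999. The simulated samples held no alike pairs, so these numbers say nothing of false calls where samples are not independent. Members and lists were chosen with earlier results of these data known. All members are counted. Those given in full are the first and last gene, the 5 largest and 5 smallest differences between HM and WT, and those with a partner list. Those called in HetKO against WT are also given in full, except Nln and Itga1, which have only their differences. Partners named are up to 2 rises and 2 falls per list, and neighbours up to 3 on each side. Promoter sequences are RefSeq's. Alternatives were a pseudocount of 0.1, no filter or one of 5 TPM, centring, quantile normalization, the replicate number as a block, pair means, leaving out WT 1 and 4, an unequal-variance test, a single fit of all 3 lines, a 1.5-fold limit, windows of 2 Mb and means over genes.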

Additional observations from a re-analysis of the deposited data

Results flagged for a closer look

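In 5 of the 141 groups of 6 samples (47 genes in 3 lines), 1 sample lay far from the rest by the ratio of its gap to the range. Chance gives about 7.0 if the samples are independent. Here they came in alike pairs, so that figure need not hold, and 2 alike samples far from the rest, as for Fst in HetKO 2 and 5, were not flagged. Pik3r1 was at 3.88 TPM in WT 2 and at 3.07 TPM in HM 3. Pde4d was at 21.85 TPM in HM 6, Plk2 at 1.04 TPM in HetKO 2 and Mier3 at 7.14 TPM in HetKO 1.

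For 3 genes every HM sample was above, and every HetKO sample below, all 6 WT samples. The share of all genes parted in this way was not computed, so nothing is read from the count. HM stood above HetKO by 1.40 for Erbin, 1.27 for Dimt1 and 1.47 for Pde4d on the log2(TPM + 1) scale. The difference was not tested, because these samples entered the choice of the genes.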

How the results depend on the processing

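Against HetKO the median of the 47 genes in HM moved from 0.62 to 0.68 with a pseudocount of 0.1, and to 0.74 with samples centred and 0.74 with quantile normalization. Against WT it moved from 0.36 to 0.54 with samples centred and to 0.51 without WT 1 and 4. With pair means the calls went from 12 to 0 of the 47 genes, from 117 to 50 and from 18 to 0 of the partner genes (HM and HetKO against WT), and from 7220 to 3414 and from 1421 to 35 of all genes. A limit of 1.5-fold left 7 of the 47 genes, 18 and 3 partner genes, and 3008 and 666 of all genes. The unequal-variance test gave 6 of the 47 and 852 of all genes between HetKO and WT. The single reversed value was Cwc22 in HM against WT, at 0.0458 with samples centred. In single-gene settings for the 12 genes called in HetKO, 91 kept call and direction and 39 lost the call, and for the 58 named partners, 539 kept both, 94 lost the call and 1 turned.

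Samples of the same number did not deviate together (mean correlation of deviations 0.01 for HM and WT, 0.06 for HetKO and WT), so the numbers were not taken as pairs. With the replicate block, 11 of the 47 genes passed in HetKO against WT, 10 of them among the 12, with 102 and 16 partner genes and 6889 and 1206 of all genes. The cause of these moves was not tested. TPM gives no reads, so precision rests on the spread between samples, and alike pairs leave unclear how many independent replicates there are.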
